A study of Mus musculus with 12 samples.

Results

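The newborn mouse brain gave signals for each subunit of the proton pump of the vacuolar type, those of the c and F subunits from probesets that match several places, and its kidney, bone and testis isoforms were not detected over the array's intron controls. Of the 30 genes of the pump and of lysosomal acidification that were measured, 23 were detected, and these covered the V1 subunits A to H, the V0 subunits a, c, c″, d and e, both accessory proteins, the assembly factor Dmxl1 and all 4 genes of chloride exchange. In brains without the kinase KIS, 20 of the 23 detected genes had a lower mean than in wildtype littermates, by at most 0.15 on the log2 scale, and 11 of the 23 had once each array was centred on its own median. Among all detected genes of the array 86.0% were lower, and 41.6% after centring. Dmxl1, Atp6ap2, Atp6v1c1 and Atp6v0a2 had the most negative differences, and each overlapped between the genotypes.

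The 30 genes are those whose symbol begins with Atp6v or Atp6ap, together with Tcirg1, Dmxl1, Clcn3, Clcn5, Clcn7 and Ostm1, out of 17550 gene symbols on the array. They hold 438 of 221417 probesets of the main type with a symbol, a probeset being a small set of probes against one exon or part of it, and 420 of the 438 passed the filter on variable probesets. No probeset of theirs lay in the interval of chromosome 1 around the deleted gene that was left out of the choice. Dmxl2, the paralogue of Dmxl1, and Wdr7, a partner in the rabconnectin complex, were matched by no symbol here and are not analysed here. Dmxl1 entered because it was chosen by the comparison of the genotypes themselves, as the first-ranked gene over its 56 probesets. Differences between the genotypes are therefore given as a description, and counts of calls stand beside the share of all genes called. Members under a threshold are named, but no p of a single member is used as support.

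The vacuolar ATPase is a rotary motor: a soluble V1 sector splits ATP and turns a rotor, and a membrane-bound V0 sector carries protons across the membrane. It acidifies lysosomes, endosomes and the Golgi, and in neurons it also builds the proton gradient that fills synaptic vesicles with transmitter. The sectors come apart and reassemble to set the activity, the rabconnectin complex (RAVE in yeast) promotes the reassembly, and chloride-proton exchangers of the ClC family supply the counter-ion.

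Pairs of female newborn littermates were compared, 1 pair from each of 6 litters, so that 6 brains were KIS +/+ and 6 were KIS -/-. KIS, the product of Uhmk1, is a serine/threonine kinase that phosphorylates the splicing factor SF1, and the series asks how its absence affects gene expression in the neonate brain. The mice had been backcrossed to C57BL6/N, no driver or tissue limit of the deletion is named in the labels, and total brain was taken, with 1 brain on each Affymetrix Mouse Exon 1.0 ST array. The gene value of Uhmk1 lay between 10.89 and 11.07 on the 6 wildtype arrays and between 8.62 and 8.98 on the 6 KIS-ko arrays, as the labels say. Medians of the arrays ran from 460 to 526 in signal, and the KIS-ko array had the lower median in 5 of 6 pairs, by a mean of -0.058 ± 0.093 on the log2 scale (SD, n = 6 pairs). In whole brain, fewer cells of a type and less RNA per cell cannot be told apart.

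The starts of the genes hold a feature that the choice of members did not use. Many genes of the pump and the lysosome are known targets of TFEB and TFE3, factors that bind an E-box motif with the letters CACGTG, and best its longer form TCACGTGA, which contains the first. Both motifs read the same on either strand. In the RefSeq promoters of GRCm38.p6, from 250 bases before to 50 bases after each start, 23 of the 30 members were matched, with 31 promoters in all. Dmxl1, Atp6v0a2, Atp6v0d2, Atp6v1b2, Atp6v1c1, Atp6v1g1 and Atp6v1h were not matched. CACGTG stood in 5 of these 23 genes (21.7%) and in 2187 of all 27025 genes of the table (8.09%), and TCACGTGA stood in 4 of the 23 (17.4%) and in 304 of the 27025 (1.12%). All 5 genes were detected in the brain, among 17 matched genes that were. Of the 6 matched genes that were not detected, 0 held either motif. The share over all detected genes of the array was not computed, so no link between motif and detection is read from these counts. The 7 sites are shown because they mark where the motif lies in each of the 5 genes, with the motif in capitals and 30 bases in all, 5′ to 3′ on the strand of the gene.
Atp6v1a: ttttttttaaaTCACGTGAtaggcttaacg
Atp6v0b, first site: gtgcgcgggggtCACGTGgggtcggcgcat
Atp6v0b, second site: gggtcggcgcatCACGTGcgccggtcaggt
Atp6v0d1: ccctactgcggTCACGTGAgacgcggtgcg
Atp6v0e: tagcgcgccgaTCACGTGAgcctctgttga
Clcn7, first site: tccgtcgtcagtCACGTGggcaccgatgat
Clcn7, second site: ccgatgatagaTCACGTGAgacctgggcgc

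The site of Atp6v1a (chr16:44139373-44139402, minus strand) was the one farthest from a start, its CACGTG beginning at position -131. The sites of Atp6v0b (chr4:117887348-117887377 and chr4:117887330-117887359, minus strand) began at positions -36 and -18 and share part of their windows. The CACGTG of Atp6v0d1 (chr8:105566050-105566079, minus strand) began at position -3 and so crosses the start. In Atp6v0e (chr17:26676387-26676416, plus strand) it began at position 4, inside the transcript, and in Clcn7 (chr17:25133364-25133393 and chr17:25133386-25133415, plus strand) the sites began at positions -15 and 8. All positions are those of the first letter of CACGTG, also where it lies inside TCACGTGA. They count from the start of the transcript, with no position 0. A match of letters is a description and no binding was measured here.

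Detection separated the isoforms of the pump along known lines. A probeset was called above background where its mean over the wildtype arrays passed 714, the 95th percentile of 5222 intron control probesets, and a gene was called detected where at least 50% of its kept probesets did. By this rule 23 of 30 members (76.7%) and 6688 of all 17279 genes (38.7%) were detected. Signals of different probesets depend on their probes, so they place a gene above or below the controls and are not compared between genes.

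In V1, 9 of 13 genes were detected. The catalytic A subunit Atp6v1a was above the controls at 15 of 15 probesets, with a median wildtype signal of 2949. Atp6v1b2, the B subunit of brain and most tissues, was above at 12 of 12 (median 4876), whereas Atp6v1b1, the B subunit of kidney and inner ear, was above at 0 of 14 (median 187). The same split held for the C subunits, of which Atp6v1c1 passed at 12 of 14 probesets and the kidney and lung form Atp6v1c2 at 0 of 14. It held for the E subunits too, with Atp6v1e1 at 11 of 11 and the testis form Atp6v1e2 at 0 of the 2 probesets kept.

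Among the G subunits of the peripheral stalk, the ubiquitous Atp6v1g1 passed at 7 of 7 probesets and the neuronal Atp6v1g2 at 5 of 5 (median 4109), while the kidney form Atp6v1g3 passed at 0 of 3 (median 70.5). The table marks none of the 7 probesets of Atp6v1g1 as matching 1 place, and 2 of them lie on chromosome 2 rather than 4, so signals of this gene and its copies cannot be separated. Atp6v1d and Atp6v1f, the D and F subunits of the central rotor, passed at 9 of 10 and 4 of 4 probesets, and the 4 of Atp6v1f also match several places. Atp6v1h, the regulatory H subunit, passed at 12 of 16.

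In V0, 7 of 10 genes were detected. Of the a subunits, which steer the pump to a membrane, the neuronal and synaptic vesicle form Atp6v0a1 passed at 26 of 27 probesets (median 5789) and the Golgi and endosome form Atp6v0a2 at 17 of 22 (median 1259). Tcirg1, the a3 subunit of osteoclasts and lysosomes, passed at 4 of 19 (median 429), and Atp6v0a4, the form of renal intercalated cells, at 2 of 29. The proteolipid genes of the rotor ring, Atp6v0c and Atp6v0b, passed at 5 of 5 and 8 of 10, and none of the 5 of Atp6v0c is marked as matching 1 place. Atp6v0d1, the d subunit of most tissues, had only 1 probeset, which passed at 7940, and the osteoclast form Atp6v0d2 passed at 0 of 10 (median 85.5). Both e subunits were detected, Atp6v0e at 4 of 5 and the brain-enriched Atp6v0e2 at 7 of 8.

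Both accessory proteins were detected. Atp6ap1, which assists assembly of the pump in the endoplasmic reticulum, passed at 14 of 14 probesets, and Atp6ap2, the prorenin receptor, at 14 of 15, all except the one nearest the 3′ end. Dmxl1 passed at 45 of 56 probesets with a median wildtype signal of 1309. The endosomal exchanger Clcn3 passed at 15 of 17, Clcn5 at 10 of 13, and the lysosomal exchanger Clcn7 at 17 of 30, the lowest share among the detected members. Ostm1, the partner subunit that Clcn7 needs for its stability, passed at 10 of 12.

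**Figure D1:**
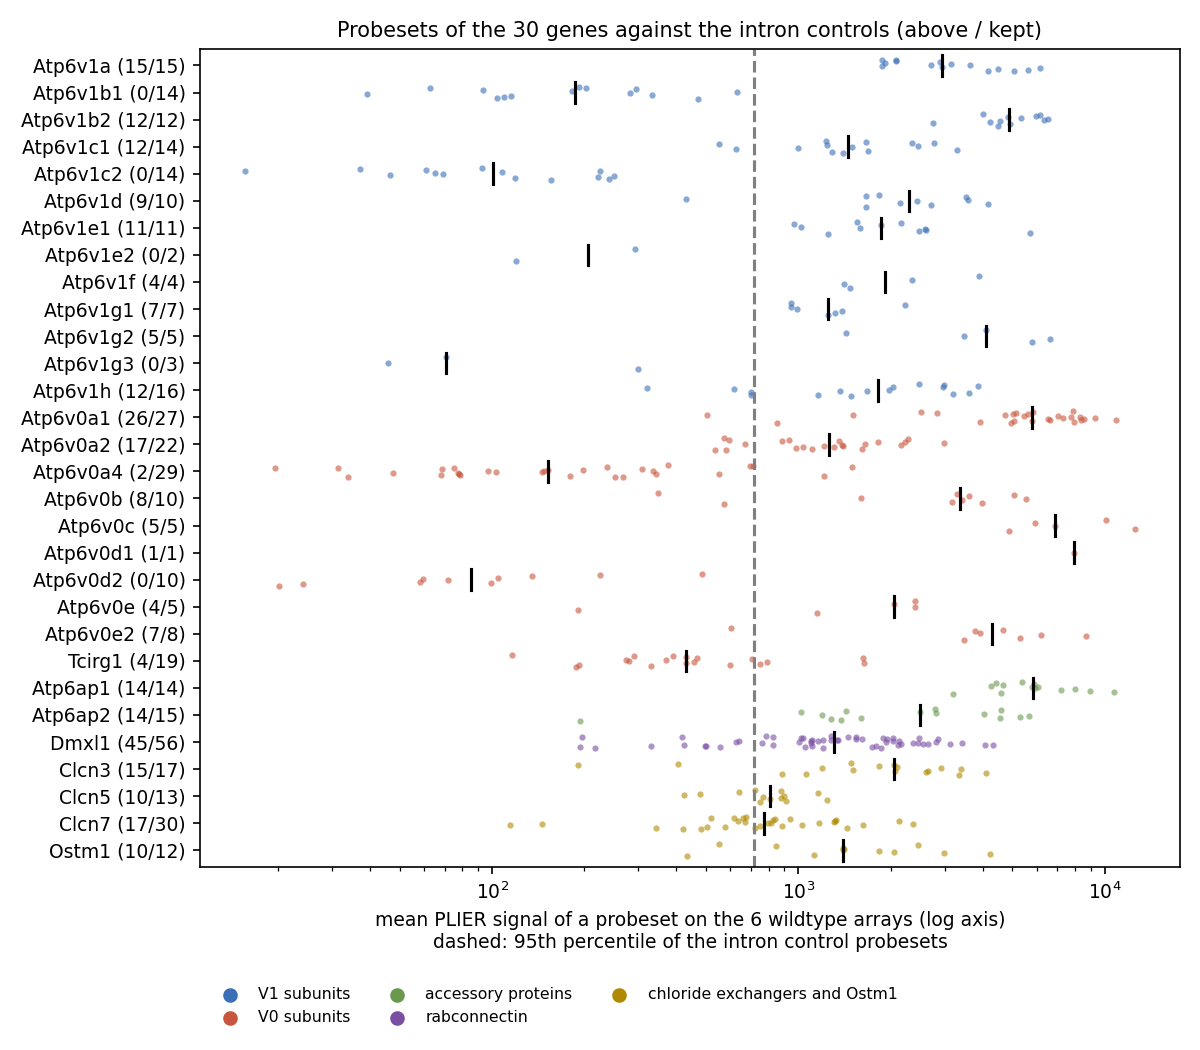
Mean PLIER signal of each kept probeset on the 6 wildtype arrays, on a log axis, for the 30 genes, with the number of probesets above the controls over the number kept beside each name. Points are probesets, black ticks are the median of a gene, and the dashed line is the 95th percentile of the intron controls at 714; the 7 genes that were not detected have most of their points on its left.

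The level of a gene was then taken as the mean of log2(signal + 16) over its kept probesets and compared within the 6 pairs. Over the 30 members 23 were lower in KIS-ko brains (76.7%), against 69.8% of all 17279 genes, and the median difference was -0.047, against -0.036. Among detected genes the shares were 20 of 23 (87.0%) and 86.0%, and the medians -0.056 and -0.046. Centring each array on its own median left 11 of the 30 and 11 of the 23 lower, with 41.6% of all detected genes lower, so the direction of the group changed with the scaling. Normalizing the arrays by quantiles again left 17 of 30 and 17 of 23 lower, with 60.2% of all detected genes.

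The limma fit called 0 of 30 members at an adjusted p of 0.05, as against 1 gene of all (0.00579%). At an unadjusted p of 0.05 it called 2 members lower, where 4.34% of all genes were called lower. These were Atp6v1c1 and Dmxl1. Dmxl1 was chosen by this contrast, and neither call is used as a test. It called 0 members higher, where 1.82% were. The plain paired test on the same gene values, without limma's shared variance, called 1 member unadjusted, Atp6v0b, and 0 after adjustment, where 4.35% and 0.00579% of all genes were called. By the fold change of the methods, 4 members were lower by at least 6%, namely Dmxl1, Atp6v0a2, Atp6ap2 and Atp6v1c1 (8.84% of all genes were), and 2 were higher by at least 6%, Atp6v0d2 and Atp6v1g3 (17.5% of all genes were), neither of which was detected. The genotypes did not overlap in 0 of 30 members and in 0.208% of all genes. The choice of members used this contrast, so nothing is read from these counts.

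**Figure D2:**
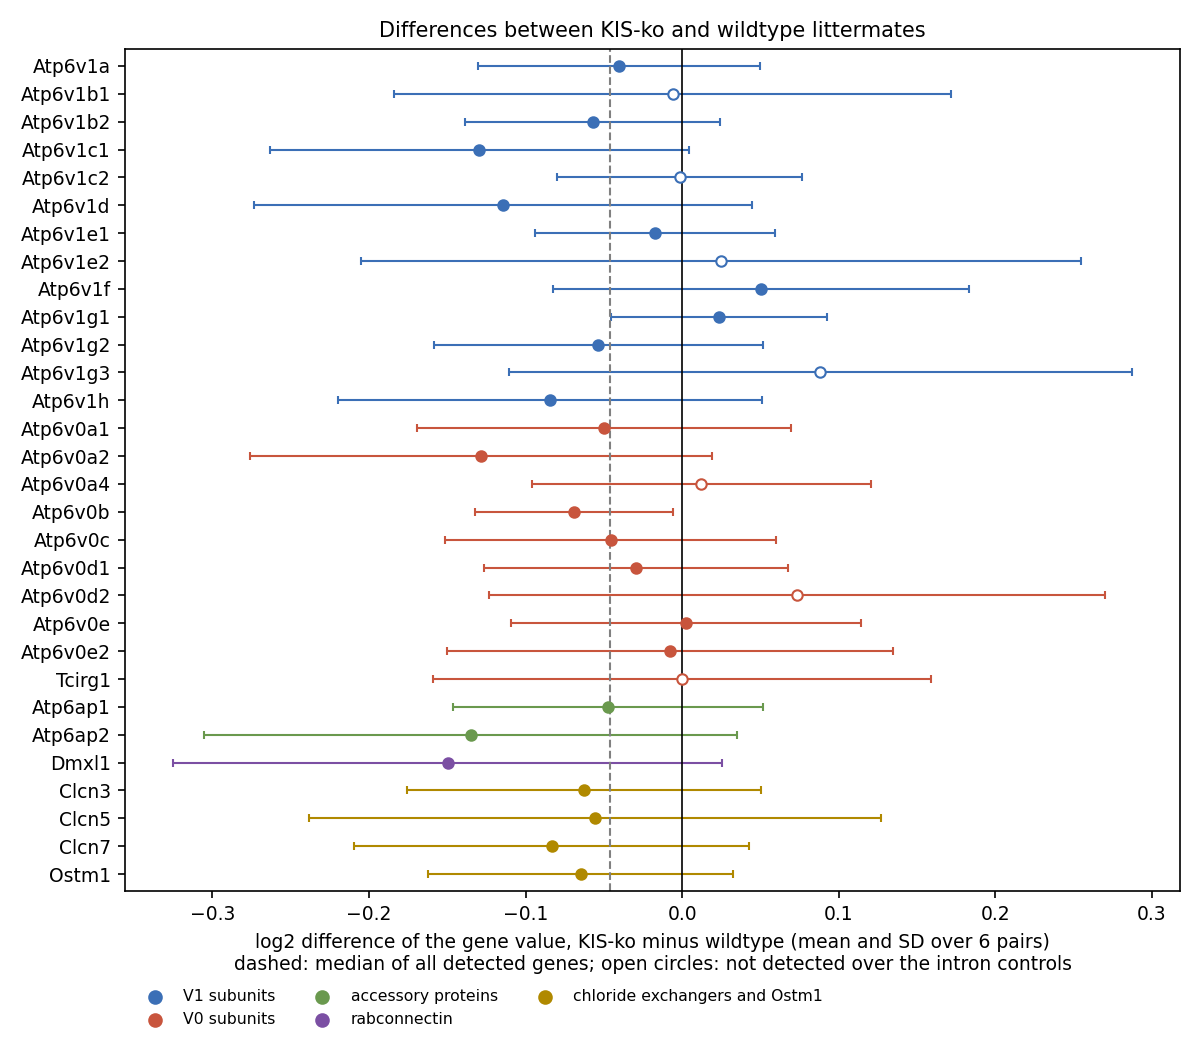
Log2 difference of the gene value, KIS-ko minus wildtype, for the 30 genes, as mean and SD over 6 littermate pairs, with filled circles for detected genes and open circles for the others. Most filled circles lie between -0.15 and 0.05 around the dashed median of all detected genes (-0.046), and the SD crosses 0 in all of them except Atp6v0b.

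Dmxl1 encodes a large WD-repeat protein of the rabconnectin complex, which brings the V1 and V0 sectors together. Its gene value on the wildtype arrays was 10.21 at the lowest, 10.27 at the median and 10.41 at the highest. On the KIS-ko arrays it was 9.88, 10.17 and 10.33. The 2 ranges overlapped, and the KIS-ko arrays were spread more widely, with an SD of 0.18 against 0.075.

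The difference was -0.15 ± 0.18 (SD, n = 6 pairs) and was negative in 4 of 6 pairs. Litters 1, 3, 5 and 6 gave -0.34, -0.27, -0.15 and -0.27, litter 2 gave 0.0018 and litter 4 gave 0.11. The pairs thus fell on both sides of 0, and leaving out litter 4 gave -0.20. Centring the arrays on their medians brought the difference to -0.094, and over 18 alternatives it stayed between -0.20 and -0.094. By the measure of the methods the fold change was 0.919 ± 0.095 (SD over pairs). The natural log of the confidence value was -51.0, where the limit at which a probeset counts as near the fold change of its gene is an interpretation of the methods, on which all ranks given here rest. Ttc28 and Herc3 came next, at -45.4 and -39.4.

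Along the transcript Dmxl1 was lower at 55 of 56 probesets, with a median of -0.15 and a range from -0.37 to 0.043. The 28 probesets of the 5′ part had a median of -0.14 with 27 lower, and the 28 of the 3′ part a median of -0.16 with 28 lower. The only probeset that was higher was the one nearest the 5′ end, at 0.043 ± 0.26. Probesets above the controls had a median of -0.14 (44 of 45 lower), and the 11 that were not above had a median of -0.23 (11 of 11 lower).

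Most probesets had the same sign within a pair. In litters 1 and 3 all 56 of 56 were lower, in litter 6 it was 52 and in litter 5 it was 47, whereas in litter 2 it was 21 and in litter 4 it was 14. Probesets of one gene on one array share the RNA, so 56 probesets are not 56 replicates. The number of probesets lower over the mean of the pairs, 55, therefore stands beside 4 of 6 pairs.

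**Figure D3:**
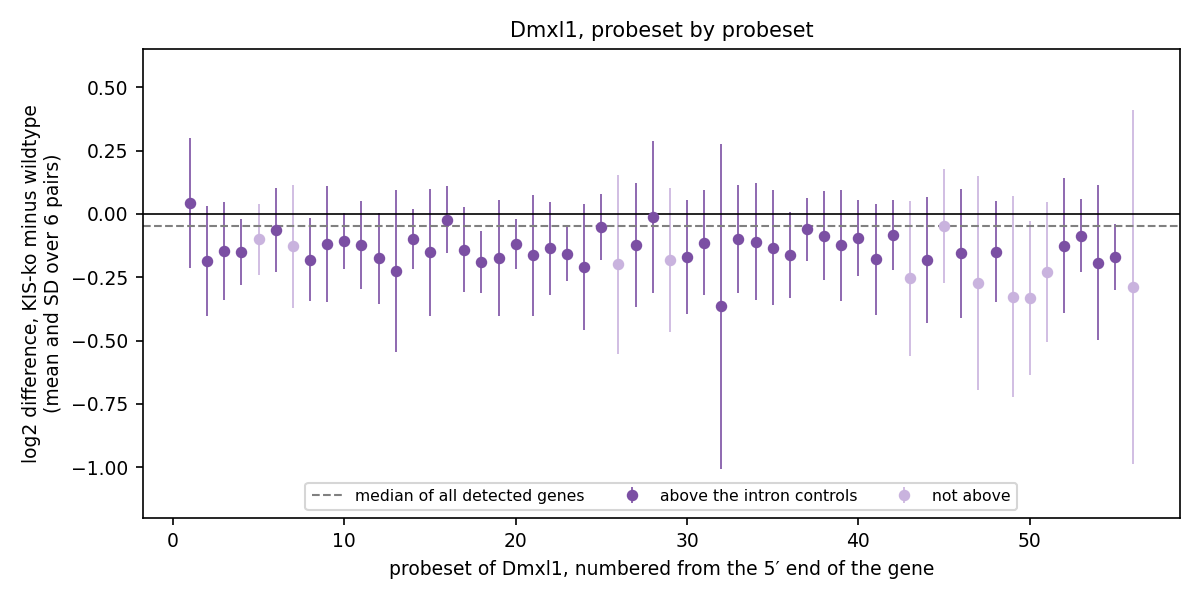
Log2 difference, KIS-ko minus wildtype, for each of the 56 probesets of Dmxl1 in order from the 5′ end, as mean and SD over 6 pairs, with dark points for probesets above the intron controls and pale points for the others. All points except the first lie below 0, and most lie below the dashed median of all detected genes.

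Within V1, 7 of the 9 detected subunits were lower, with a median of -0.053, and 4 of the 9 after centring. Atp6v1c1, the C subunit that joins the stalk to V0 and lets go when the sectors part, was lower in 5 of 6 pairs, by -0.13 ± 0.13 (-0.074 after centring). Its wildtype arrays lay at 10.47, 10.52 and 10.60 (lowest, median, highest) and its KIS-ko arrays at 10.32, 10.38 and 10.53. The upper end of the KIS-ko range came from litter 4, which also held the lowest wildtype array, and all 14 of its 14 probesets were lower over the pairs.

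Atp6v1d, the D subunit of the rotor shaft, gave -0.11 ± 0.16 and was lower in 4 of 6 pairs, with -0.059 after centring and -0.065 as the median over probesets. The wildtype arrays were at 10.89, 11.04 and 11.15 and the KIS-ko arrays at 10.81, 10.89 and 11.06, so that the KIS-ko median was close to the lowest wildtype array. Atp6v1h, the H subunit that holds back the free V1 sector, gave -0.084 ± 0.14, with 5 of 6 pairs lower. Its wildtype arrays lay at 10.49, 10.67 and 10.68 and its KIS-ko arrays at 10.45, 10.57 and 10.64. One wildtype array, that of litter 4, lay well below the others. The difference was -0.029 after centring and -0.13 without litter 4.

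The remaining detected V1 subunits stayed nearer 0. The catalytic A subunit Atp6v1a gave -0.040 ± 0.090 and the B subunit Atp6v1b2 -0.057 ± 0.081. The E subunit Atp6v1e1 gave -0.017 ± 0.077 and the neuronal G subunit Atp6v1g2 -0.053 ± 0.10. Atp6v1f and Atp6v1g1 were higher, by 0.050 ± 0.13 and 0.024 ± 0.069, and all 4 probesets of Atp6v1f were higher. For these last 2 genes no probeset is marked as matching 1 place.

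Within V0, 6 of the 7 detected subunits were lower, with a median of -0.046, and 2 of the 7 after centring. Atp6v0a2, the a subunit of Golgi and endosomes, was lower in 5 of 6 pairs, by -0.13 ± 0.15 (-0.073 after centring). Its wildtype arrays lay at 10.11, 10.25 and 10.34 and its KIS-ko arrays at 9.99, 10.06 and 10.27. The KIS-ko median was below the whole wildtype range, and litters 4 and 5 closed the gap with the highest KIS-ko arrays. Its fold change by the methods was 0.919 ± 0.063, and 21 of its 22 probesets were lower.

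Atp6v0b, the c″ subunit of the ring, had the least spread of the named members over the pairs. It gave -0.069 ± 0.063 and was lower in 5 of 6 pairs, with wildtype arrays at 11.11, 11.19 and 11.29 and KIS-ko arrays at 11.06, 11.12 and 11.22. Both ranges overlapped over most of their width, and after centring the difference was -0.014. Atp6v0e, the small e subunit, gave 0.0026 ± 0.11 with 3 of 6 pairs lower; its wildtype arrays were at 10.12, 10.29 and 10.37 and its KIS-ko arrays at 10.10, 10.28 and 10.45. This value changed sign under 6 of 18 alternatives.

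The neuronal a subunit Atp6v0a1 gave -0.050 ± 0.12, lower in 3 of 6 pairs. The ring subunit Atp6v0c, with probesets that match several places, gave -0.046 ± 0.11 and the d subunit Atp6v0d1 -0.029 ± 0.097, the latter from its 1 probeset. These values, and that of Atp6v0e2 (lower in 4 of 6 pairs), lay within 1 SD of 0. Among the isoforms that were not detected the SD over the pairs ran from 0.078 for Atp6v1c2 to 0.23 for Atp6v1e2. The arrays of Atp6v1e2 ran from 7.45 over a median of 7.65 to 7.84 in wildtype and from 7.30 over 7.70 to 7.96 in KIS-ko brains. Of the 7 such genes 3 were lower, with a median of 0.012.

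Of the accessory proteins, Atp6ap2 gave -0.13 ± 0.17 (-0.079 after centring) and was lower in 4 of 6 pairs. Its wildtype arrays lay at 10.87, 11.05 and 11.07 and its KIS-ko arrays at 10.76, 10.88 and 10.99. Only the wildtype array of litter 4 reached down into the lower part of the KIS-ko range. All 15 of its 15 probesets were lower over the pairs, and 9 of them match 1 place. Among genes changed by at least 6%, Atp6ap2 ranked 16 by the confidence value of the methods, with a fold change of 0.928 ± 0.090. Atp6v0a2 ranked 41, whereas Atp6v1c1, with a fold change of 0.931 ± 0.076, ranked 2462. The log of the confidence value is a sum over probesets. The methods expect low values for genes with several probesets that give similar fold changes. Atp6ap1 gave -0.048 ± 0.099, near the median of all detected genes, and 0.0081 after centring.

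All 4 genes of chloride exchange were lower, with a median of -0.064, and 3 of the 4 after centring, with a median of -0.0081. Clcn7, the lysosomal exchanger, gave -0.083 ± 0.13 with 5 of 6 pairs lower, from wildtype arrays at 9.42, 9.56 and 9.69 to KIS-ko arrays at 9.41, 9.46 and 9.69. After centring the difference was -0.028, and without litter 2 it was -0.051. The highest KIS-ko array, that of litter 4, lay apart from the other 5, and 28 of 30 probesets were lower. Its partner Ostm1 gave -0.065 ± 0.098 with 4 of 6 pairs lower, from 10.46, 10.50 and 10.54 in wildtype to 10.33, 10.41 and 10.55 in KIS-ko brains. The wildtype arrays of Ostm1 lay close together, and the KIS-ko arrays spread on both sides of them. After centring the difference was -0.0091.

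Clcn5, an endosomal exchanger known from the kidney, gave -0.056 ± 0.18 with 3 of 6 pairs lower. Its wildtype arrays lay at 9.37, 9.62 and 9.82 and its KIS-ko arrays at 9.37, 9.58 and 9.72. The lowest value of either genotype came from litter 5, and after centring the difference was 0.0001. Without litter 6 it was -0.0054 and without litter 2 it was -0.014. Clcn3, the exchanger of endosomes and synaptic vesicles, gave -0.063 ± 0.11 with 5 of 6 pairs lower.

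**Figure D4:**
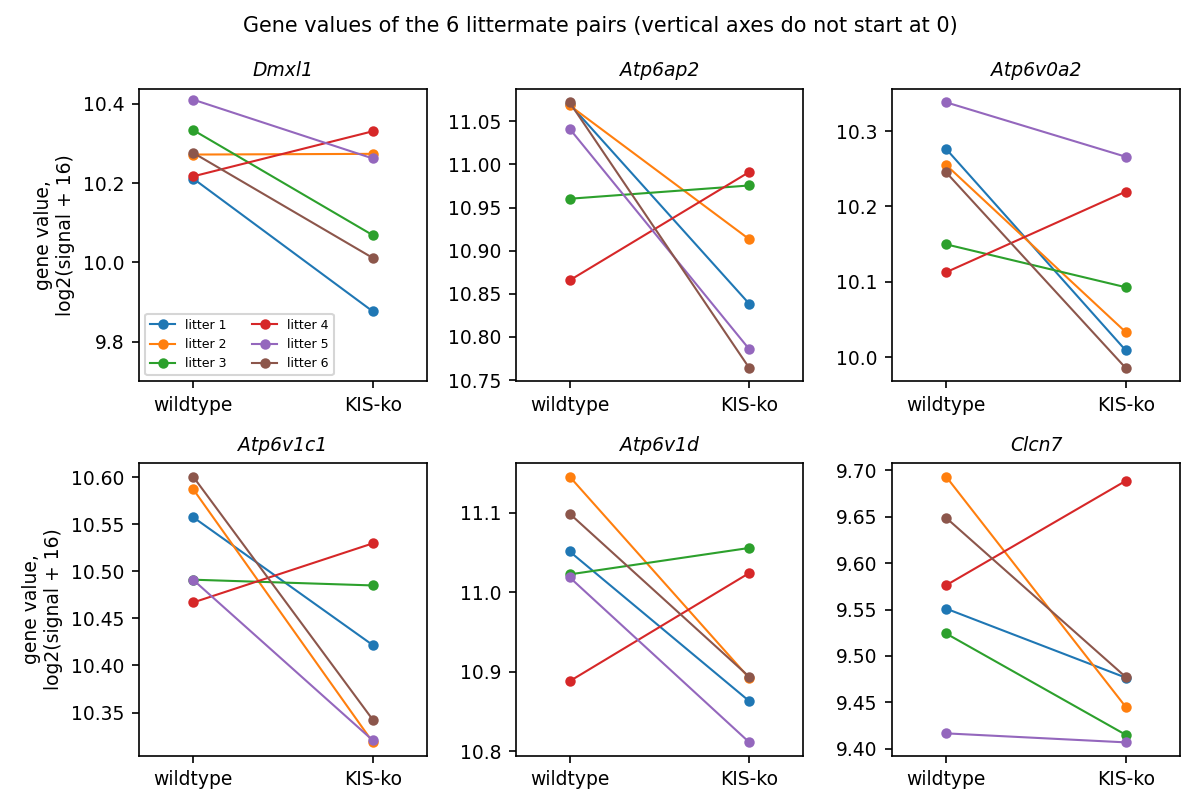
Gene values, as the mean of log2(signal + 16) over probesets, of 6 members on the wildtype and KIS-ko arrays, with a line for each of the 6 littermate pairs and a separate vertical axis for each gene that does not start at 0. Litter 4 rises in all 6 panels while most other litters fall or stay level.

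The pairs differed among themselves. Over the 23 detected members the median difference was -0.074 in litter 1, -0.14 in litter 2, 0.027 in litter 3, 0.10 in litter 4, -0.083 in litter 5 and -0.14 in litter 6. Over all detected genes it was -0.068, -0.12, 0.0054, 0.11, -0.045 and -0.15 in the same order. The members had the sign of all detected genes in each litter, and the medians of the arrays differed in the same litters by -0.075, -0.13, -0.028, 0.098, -0.040 and -0.17. In litter 4 only 1 of 23 detected members, Atp6v0b, was lower in the KIS-ko brain, against 22 of 23 in litters 2 and 6. Litters 1, 5 and 3 had 19, 18 and 7. Of all 6688 detected genes 714 were lower in litter 4, 5839 in litter 2 and 6231 in litter 6.

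Dmxl1 had the sign of the members' median in litters 1, 4, 5 and 6 and differed from it in sign in litters 2 and 3. In litter 3 it gave -0.27 where the median of the detected members was 0.027, in litter 2 it gave 0.0018 where the median was -0.14, and in litter 1 it gave -0.34 where the median was -0.074. Atp6ap2 gave -0.23, -0.16, 0.015, 0.13, -0.26 and -0.31 over litters 1 to 6, and Atp6v1c1 gave -0.14, -0.27, -0.0062, 0.063, -0.17 and -0.26. These 2 genes had the sign of the members' median in all litters except, for Atp6v1c1, litter 3.

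**Figure D5:**
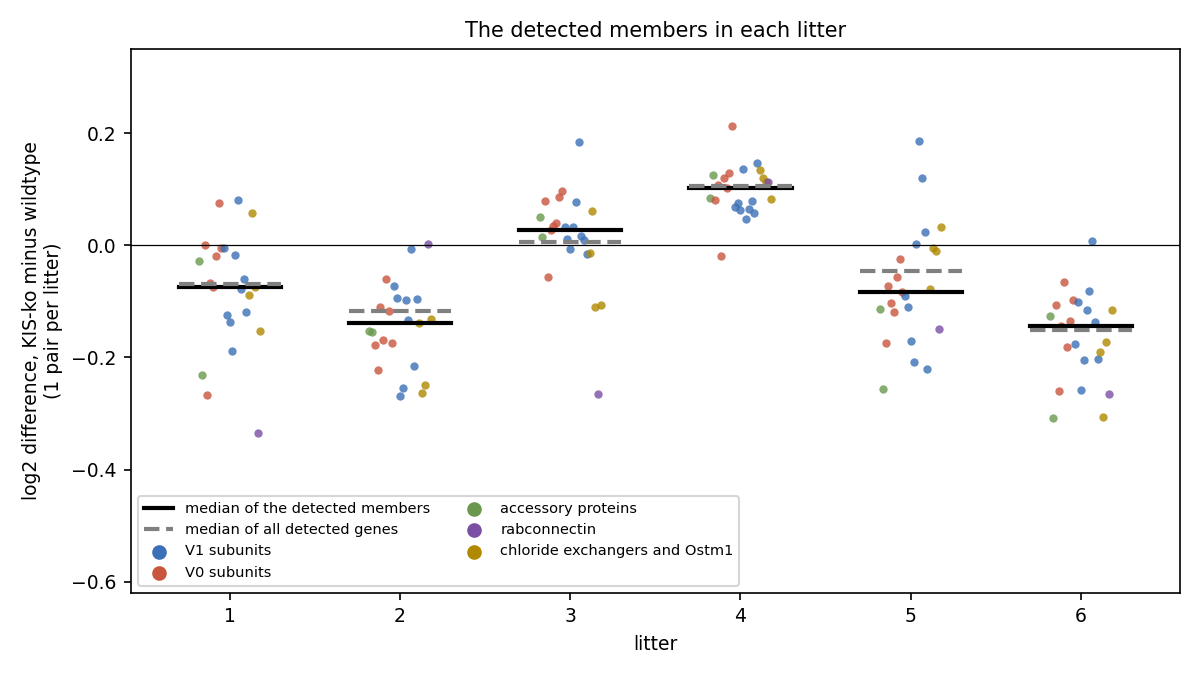
Log2 difference, KIS-ko minus wildtype, of each of the 23 detected members within each litter, 1 pair per litter, coloured by role, with the median of these members (solid line) and of all detected genes (dashed line). The solid line follows the dashed one, from 0.10 in litter 4 to -0.14 in litters 2 and 6, and Dmxl1 (purple) lies far below both in litters 1 and 3.

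Variation between litters, which had no part in the choice of members, was tested over all genes with limma's F test. It called 0 of 30 members at an adjusted p of 0.05, and 0 of all 17279 genes (0%). At an unadjusted p of 0.05 it called 0 of 30 members where 11.3% of all genes were called. That share rests on single litters, since 676 genes passed without litter 5 and 2722 without litter 4, against 1955, and 0 of 30 members passed in either case. With the arrays centred on their medians 2 members passed the unadjusted threshold, and 2 did when the arrays were normalized by quantiles again, with 2501 and 2611 genes in all. The lowest adjusted p among the members was 0.581 for Atp6v1e2 and then 0.602 for Atp6v0e, 0.650 for Clcn5 and 0.692 for Dmxl1 (limma). A litter held 2 brains, and litter cannot be told apart from the day of dissection, labelling or hybridization, which the labels do not give.

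Other genes of the pathway gave values of the same size. Their counts stand beside 12062 of all 17279 genes lower (69.8%), and 6524 after centring. Of a list of factors that assemble or regulate the pump, among them factors of the endoplasmic reticulum, TLDc proteins, Tmem9 and the rabconnectin component Rogdi, 9 of 10 were measured and 9 were lower (5 after centring), with a median of -0.061. Oxr1 and Ncoa7, TLDc proteins known to act on the pump and in the defence against oxidation, had the lowest p of this list, at -0.14 (SE 0.063) and -0.099 (SE 0.059). Neither was detected over the controls.

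Of the Ragulator, Rag and TFEB genes, which sense amino acids at the lysosome together with the pump, 13 of 14 were measured and 11 were lower (4 after centring), with a median of -0.033. The GTPase Rragb gave -0.12 and the arginine sensor Slc38a9, which was not detected, -0.10. Of the other lysosomal membrane proteins 14 of 14 were measured and 13 were lower (8 after centring, median -0.066). The calcium channel Mcoln1 gave -0.090 with all 6 of 6 pairs lower, and the sialic acid exporter Slc17a5 gave -0.093.

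Of the lysosomal hydrolases, the enzymes that need the acid pH, 27 of 28 were measured and 27 were lower (19 after centring), with a median of -0.064. The mannosidase Manba, which was not detected over the controls, gave -0.11, and cathepsin B (Ctsb) gave -0.099. In the 4 lists the limma fit called 0 of 63 genes in either direction at an adjusted p of 0.05, where 0.00579% of all genes were called, and the lowest adjusted p was 0.685. At an unadjusted p of 0.05 it called 1 of the 63 lower, Manba, where 4.34% of all genes were called lower. The cathepsin and the other named genes of the lists each had an adjusted p of 0.685 (limma).

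The cell types of the brain were read from marker lists. All 8 of 8 neuronal markers were detected, with a sum of their gene values, taken back to signal, from 40576 to 44525 in wildtype and from 40821 to 43427 in KIS-ko brains. Of the astrocyte and radial glia markers 5 of 6 were detected, and 6 of 6 had a lower mean in KIS-ko brains, 5 of 6 after centring (median -0.096, sums from 20088 to 23272 and from 19021 to 21739). Their most negative difference was -0.27. At an unadjusted p of 0.05 the limma fit called 1 of these 6 lower, where 4.34% of all genes were, and 0 after adjustment. Of the microglia and macrophage markers, cells rich in lysosomes, 1 of 8 was detected, with sums from 3616 to 4092 and from 3357 to 4260. Markers of oligodendrocyte lineage were detected at 4 of 6, of endothelium at 2 of 5, of choroid plexus at 1 of 5 and of erythroid cells at 2 of 5. In KIS-ko brains 5 of 8 neuronal markers had a lower mean (median -0.025), and 5 of 8 of microglia and macrophages did (median -0.030). Of the oligodendrocyte lineage 4 of 6 were lower (median -0.037), of endothelium 4 of 5 (-0.042), of choroid plexus 3 of 5 (-0.0019) and of erythroid cells 1 of 5 (0.017). After centring these counts were 2 of 8, 2 of 8, 1 of 6, 2 of 5, 1 of 5 and 0 of 5. Beside the marker counts, 12062 of all 17279 genes were lower (69.8%), and 6524 after centring. Among all detected genes 86.0% were lower, and 41.6% after centring. The part of these cell types in the differences of the pump genes was not tested.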

How the data were processed

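Total RNA of 12 whole brains was hybridized to exon arrays, 1 brain to each. Per the methods, the authors used Expression Console for quantile normalization at the level of exons and PLIER for the probeset signals; the deposited intensity is this signal on a linear scale. Software versions and the build behind the positions in the table are not given in the sources used here. Main-type probesets with a symbol were used. As the methods ask, a probeset was rejected where its relative standard deviation passed 0.4 within a genotype, which kept 205469 probesets of 17279 genes. Replicates are separate littermates, and the number of arrays and the signal over the intron controls limit the precision.

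A gene value is the mean of log2(signal + 16) over probesets. It was fitted with limma 3.58.1 (R 4.3.3) on genotype with litter as a block, with Benjamini-Hochberg adjustment over all genes at 0.05, and the litters were tested by the F test of the same fit. The pairing comes from the labels, which give 1 litter to each pair. The deviations of littermates from the mean of their genotype correlated between -0.114 and 0.473, and those of brains from different litters at -0.019 on average. The fold change and confidence value of the methods were computed in Python 3.11.15 with numpy 2.4.6 and pandas 2.3.3. The script was tested on simulated data.

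The members, the gene lists and the markers were chosen with earlier results of these data known. Array values are given for Dmxl1, Atp6ap2 and Atp6v0a2, for the 6 other detected members with the largest differences and for the 4 members with the lowest p between litters (12 genes, Dmxl1 entering in both ways), and for each other list the 2 genes with the lowest p. Older symbols were matched through RefSeq accessions. Promoters are those of RefSeq (GRCm38.p6). Alternatives were 2 pseudocounts, 2 filters, dim probesets left out, centring, quantiles again, the median over probesets, probesets matching 1 place, limma with trend and robust, the measure of the methods, a plain paired test without limma's shared variance, no litter block and each litter left out.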

Additional observations from a re-analysis of the deposited data

Results flagged for a closer look

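In each of 24 groups of 6 arrays (12 members in 2 genotypes), the array at either end was compared with the rest, and 2 groups had an end array whose gap to its neighbour took an unusually large share of the range. About 1 in 20 groups does so by chance. Atp6v1h on the wildtype array of litter 4 was at 10.49, with the other wildtype arrays between 10.64 and 10.68. Clcn7 on the KIS-ko array of litter 4 was at 9.69, with the other KIS-ko arrays between 9.41 and 9.48. Both arrays belong to the litter in which only 1 of the 23 detected members was lower in the KIS-ko brain, as were 714 of all 6688 detected genes.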

How the results depend on the processing

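The fit without the litter block left 23 of 30 members lower with a median of -0.047 and 0 called, and 3 members instead of 2 had an unadjusted p under 0.05. Centring the arrays on their medians left 11 of 30 members and 11 of 23 detected members lower and turned the median to 0.0090; the count over detected members was added after the differences were seen. Members lower ranged from 19 to 24 with a litter left out, detected members lower from 17 to 21, and the median from -0.075 to -0.022. The 2 members at an unadjusted p became 0 with a pseudocount of 1, 4 with a pseudocount of 64, 1 with centring, 1 with quantiles again, 4 with trend and robust and 1 by the plain paired test, and ranged from 0 (without litter 1, 5 or 6) to 7 (without litter 4), with 1 without litter 2. Between litters the unadjusted count of 0 became 2 with centring and 2 with quantiles again. After adjustment 0 members and 0 other genes were called under the settings run, with 58 or 59 of the 63 other genes tested where dim probesets or those matching several places were left out. Of the 12 named members 9 kept their sign, but centring brought Atp6ap2 to -0.079, Atp6v0a2 to -0.073, Atp6v1c1 to -0.074, Atp6v1d to -0.059, Atp6v1h to -0.029, Clcn7 to -0.028, Atp6v0b to -0.014 and Ostm1 to -0.0091. Atp6v1e2 (0.025) became -0.11 with the stricter filter at 0.2 and 0.16 with probesets matching 1 place, and had no value with dim probesets left out; without a litter it ranged from -0.025 (litter 6) to 0.094 (litter 1), with -0.0005 without litter 2 and -0.015 without litter 4. Atp6v0e (0.0026) became -0.0032 with a pseudocount of 64, -0.048 with dim probesets left out, -0.070 with the median over probesets, 0.058 with centring and 0.035 with quantiles again; without a litter it ranged from -0.023 (litter 4) to 0.030 (litter 6), with -0.012 and -0.014 without litters 1 and 3. Clcn5 (-0.056) became 0.0001 with centring and ranged from -0.091 without litter 4 to -0.0054 without litter 6. The cause of these changes was not tested. The planned identity between paralogous proteins was not run.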
